A study of Mus musculus with 6 samples.

Results

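Fatty acid oxidation and peroxisome genes were followed in mouse kidneys after the renal vessels were clamped for 0, 45 or 60 min. The group was a list of 39 gene symbols, and 38 of them were represented among the 18193 genes that had a probe set annotated with 1 symbol. Acsl1, an acyl-CoA synthetase gene, had no such probe set and is not analysed here. Each gene was read from its single-symbol probe set with the highest mean intensity over the 6 arrays. All 38 had a mean log2(intensity + 16) above the threshold of 6.01, the 40th percentile of probe sets, as did 12734 of the 18193 genes. By textbook location 19 of the 38 encode mitochondrial proteins, 10 peroxisomal proteins, 4 proteins found in both organelles and 5 proteins of other places.

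Both organelles shorten fatty acids by beta-oxidation, removing acetyl-CoA from the acyl chain in repeated cycles. Mitochondria import long-chain acyl groups through the carnitine shuttle and pass the electrons released to the respiratory chain. Peroxisomes handle very-long-chain and branched chains, and their oxidases produce hydrogen peroxide, which catalase breaks down. Proximal tubule cells of the kidney are rich in both organelles and draw most of their energy from fatty acids, and the nuclear receptor PPAR-alpha drives transcription of many of these genes.

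The animals were male FVB/N mice aged 6-8 week. Each operated mouse was anesthetized, had the renal pedicle exposed through a flank incision and had the vessels of 1 kidney clamped for 0, 45 or 60 min and then released, so the 0 min group had surgery without ischemia. Kidneys were collected on day 1 or day 3, and total RNA was hybridised to 1 Affymetrix 3' expression array for each of the 6 combinations of clamp time and day. The labels do not say whether an array held RNA of 1 animal or of several, and no combination had a second array.

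The deposited intensities had the same trimmed mean on the 6 arrays, 500.003, and medians between 81.4 and 95.3. Beta-actin control probe sets at the 3' and 5' ends of the transcript, whose ratio tracks RNA integrity, had a log2 ratio of 1.08 to 1.12 on day 1. On day 3 this ratio was 0.77 at 0 min, 1.03 at 45 min and 0.49 at 60 min. The same ratio for Gapdh was -0.23, -0.22 and -0.20 on day 1 (0, 45 and 60 min), and -0.37, -0.33 and -0.37 on day 3. It did not set the 60 min day 3 array apart from the 0 min array of that day. Differences are given as log2(intensity + 16), which understates those of dim genes. The SE and p-values come from limma with 2 residual degrees of freedom, so the number of arrays limits the precision and the spread is that of the 6 arrays around a fit of clamp time plus day.

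At 60 min the genes of both organelles had lower intensities than at 0 min. On day 1, 36 of the 38 were lower than at 0 min by any amount (47.2% of the 12734 genes were), and on day 3, 35 of 38 (45.8% of genes). The median log2 difference of the 38 was -0.41 on day 1 and -0.47 on day 3, where the median of the 12734 genes was 0.03 and 0.04. On both days 33 of the 38 were lower (31.7% of genes), among them 19 of 19 mitochondrial and 8 of 10 peroxisomal genes.

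Most of these differences were smaller than 2-fold. On day 1, 0 of the 38 were at least 2-fold lower at 60 min (1.71% of genes), and on day 3 these were Acsm3, Bdh1 and Ehhadh, 3 of 38 (2.32% of genes). No gene of the list was 2-fold lower on both days. In the fit over both days, 0 of the 38 passed an adjusted p under 0.05 in limma (0% of the 12734 genes did). At an unadjusted p under 0.05, 18 of the 38 were lower and 0 higher, against 8.22% of genes lower, which is 1047 genes, and 1676 genes higher. With a robust variance trend limma called 615 genes at an adjusted p under 0.05, among them Acadm, Ehhadh, Phyh, Bdh1 and Mlycd. The median difference over both days was -0.40 for the mitochondrial genes and -0.44 for the peroxisomal genes (0.03 for the 12734 genes), with 11 of 19 and 5 of 10 lower at an unadjusted p under 0.05. The difference between the organelles was not tested.

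**Figure D1:**
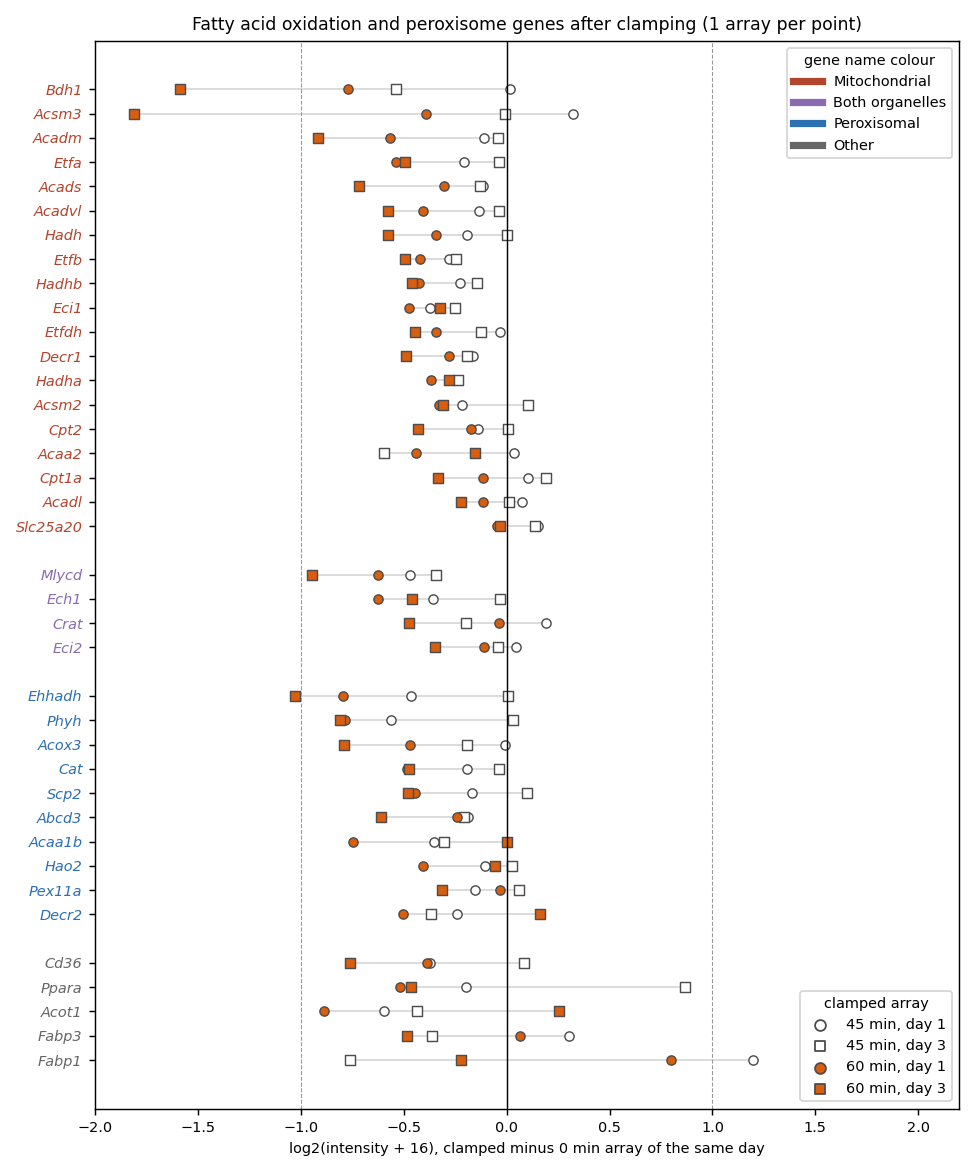
Log2(intensity + 16) of each of 38 genes on each clamped array minus the 0 min array of the same day, 1 array per point, with dashed lines at 2-fold. Filled 60 min points lie left of 0 on both days for 33 of 38 genes, while the open 45 min points have medians of -0.17 on day 1 and -0.04 on day 3.

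Markers of kidney cells also differed in level between clamp times. The intensities of the 14 proximal tubule markers summed to 191200, 177600 and 137100 on day 1 (0, 45 and 60 min), and to 226400, 219200 and 152700 on day 3, lowest at 60 min on each day. In the fit over both days 13 of the 14 were lower at 60 min than at 0 min (5873 of the 12734 genes were). Their median in that fit was -0.52, and none was at 0 on any array. In whole kidney, fewer proximal tubule cells and less RNA per cell cannot be told apart. The 6 markers of the loop and distal nephron had a median of -1.24.

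In the fit over both days the macrophage and leukocyte markers were higher at 60 min in 12 of 12 cases (6861 of the 12734 genes were). Their median was 1.04 in that fit, 0.53 on day 1 and 1.78 on day 3. On day 1 Itgam (-0.18) and Csf1r (-0.33) were lower at 60 min than at 0 min. Their summed intensity was 7732, 12350 and 12070 on day 1, and 12720, 18170 and 43950 on day 3, by far the highest at 60 min on day 3. The 8 endothelial markers had a median of 0.16. Of tissues that may adhere to a kidney and that use fatty acids, adipocyte markers summed to 2019 to 3720 (6 of 8 read, with Lep near 0) and striated muscle markers to 155 to 278 (6 of 6 read, 2 above the filter, with Tnnt3 near 0). The part of these cells in the differences of the 38 genes was not tested, nor was that of the lower beta-actin ratio on the 60 min day 3 array.

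Uptake, binding and activation came first in the pathway. Cd36 encodes a membrane protein that takes up long-chain fatty acids. At 0, 45 and 60 min it read 10780, 8313 and 8234 on day 1, and 10594, 11214 and 6241 on day 3. Both 60 min arrays were below the other 4, by a narrow margin on day 1, and the log2 difference of 60 min against 0 min was -0.58 ± 0.23 (limma adjusted p = 0.246). Acsm2 and Acsm3 encode mitochondrial medium-chain acyl-CoA synthetases, which activate fatty acids inside the organelle. Acsm3 read 8701, 10899 and 6629 on day 1, and 16861, 16753 and 4797 on day 3. The 60 min array was lowest on each day, and the 0 and 45 min arrays of day 3 were far above those of day 1 (60 min against 0 min, -1.10 ± 0.36, limma adjusted p = 0.188). Acsm2 differed by -0.33 on day 1 and -0.31 on day 3.

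The further genes of this step, Acot1, Fabp3 and Fabp1, showed no common direction at 60 min. Acot1, which encodes a cytosolic thioesterase that releases fatty acids from acyl-CoA, read 4248, 2802 and 2287 on day 1, and 2031, 1495 and 2429 on day 3. Intensity was lowest at 60 min on day 1 and highest at 60 min on day 3. Fabp3, a fatty acid-binding protein gene of heart and muscle, differed by 0.07 on day 1 and -0.49 on day 3, and a dimmer second probe set gave 0.09 over both days. Fabp1, the binding protein of liver, was dim on every array and read 51.3, 138 and 101 on day 1, and 33.1, 13.0 and 26.1 on day 3. Its mean passed the filter only through the day 1 arrays, and each day 3 array was below the threshold of 6.01. The clamped arrays were above the 0 min array on day 1 and below it on day 3. Its 45 min value on day 1 was at least 2-fold higher than at 0 min, the only such case among the 38 (3.57% of genes). A second, dim Fabp1 probe set gave 0.73 there, under 2-fold. Since the filter was passed only through day 1 arrays, this call is no support for a clamp difference.

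The 5 genes of the carnitine shuttle and its control had a median difference at 60 min of -0.12 on day 1 and -0.43 on day 3. Cpt1a encodes the rate-limiting enzyme that loads long-chain acyl groups onto carnitine at the outer membrane. It read 4934, 5311 and 4551 on day 1, and 4154, 4746 and 3288 on day 3. On each day 45 min was the highest array and 60 min the lowest, and the groups overlapped across days (60 min against 0 min, -0.23 ± 0.16, limma adjusted p = 0.455). A dimmer Cpt1a probe set was highest at 0 min on each day, with 1186, 1146 and 931 on day 1, and 1032, 885 and 842 on day 3. Cpt2, whose product moves the acyl group back to CoA inside the matrix, read 4402, 3992 and 3904 on day 1, and 3825, 3838 and 2836 on day 3. The 60 min array of day 3 stood below the other 5, which lay close together (-0.30 ± 0.17, limma adjusted p = 0.360). A second, dim Cpt2 probe set went the other way, with a difference of 0.72.

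Slc25a20, which encodes the carrier between them, had a difference of -0.04 ± 0.14 (limma adjusted p = 0.897), the one nearest to 0 among the mitochondrial genes. Mlycd encodes malonyl-CoA decarboxylase, which removes the inhibitor of carnitine palmitoyltransferase 1. It read 1014, 726 and 651 on day 1, and 1005, 788 and 513 on day 3. The values were in the order 0, 45 and 60 min on both days, and the 60 min arrays were below the other 4 (-0.79 ± 0.17, limma adjusted p = 0.116). Crat, which encodes a short-chain carnitine acetyltransferase, differed by -0.04 on day 1 and -0.48 on day 3.

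All 8 genes of the mitochondrial beta-oxidation spiral were lower at 60 min than at 0 min on both days (31.7% of genes were). This holds for the probe set used, and their median was -0.39 on day 1 and -0.52 on day 3. The first step is taken by acyl-CoA dehydrogenases of different chain lengths. Acadm, the medium-chain enzyme gene, read 29417, 27264 and 19834 on day 1, and 31717, 30750 and 16813 on day 3. Both 60 min arrays were below the other 4, and the 0 and 45 min arrays of the 2 days lay close together (-0.74 ± 0.17, limma adjusted p = 0.123). The very-long-chain gene Acadvl differed by -0.41 on day 1 and -0.58 on day 3, and the short-chain gene Acads by -0.31 and -0.72. The long-chain gene Acadl differed less, by -0.12 and -0.22, and its sign over both days was not kept under quantile normalization (0.0012).

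Hadha and Hadhb encode the subunits of the trifunctional protein, which carries out the later steps on long chains. Hadha read 2544, 2132 and 1967 on day 1, and 2097, 1776 and 1726 on day 3. Intensities were in the order 0, 45 and 60 min on each day, and the groups overlapped across days (-0.32 ± 0.14, limma adjusted p = 0.273). Hadhb differed by -0.43 on day 1 and -0.46 on day 3, and Hadh, the short-chain hydroxyacyl-CoA dehydrogenase gene, by -0.34 and -0.58. Acaa2, the thiolase gene of the last step, differed by -0.44 and -0.16, and at 45 min on day 3 it was lower than at 60 min (-0.60). Its other probe sets gave -0.15 and -1.20 at 60 min on day 1, and 0.09 and -0.24 on day 3. A dim probe set of Hadhb gave 0.11 on day 1 and -0.17 on day 3.

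Electrons from the dehydrogenases pass to electron transfer flavoprotein, encoded by Etfa and Etfb, and on to its ubiquinone oxidoreductase, encoded by Etfdh. These 3 genes were alike on the 2 days, with differences between -0.35 and -0.54 on day 1 and between -0.45 and -0.50 on day 3. For each of them both 60 min arrays were below the other 4.

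Auxiliary enzymes of unsaturated fatty acids differed by a median of -0.48 on day 1 and -0.35 on day 3. Of these, Eci1 and Decr1 encode mitochondrial enzymes, an isomerase and a reductase that handle double bonds. Eci1 differed by -0.48 on day 1 and -0.32 on day 3, and Decr1 by -0.28 and -0.49. The isomerase genes Ech1 and Eci2 have products in both organelles. Ech1 differed by -0.62 and -0.46, and Eci2 by -0.11 and -0.35. Decr2, the peroxisomal reductase gene, differed by -0.50 on day 1 and 0.16 on day 3, the only one of the 5 that was higher at 60 min.

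Bdh1, which encodes the mitochondrial enzyme that interconverts the ketone bodies acetoacetate and 3-hydroxybutyrate, had the largest difference of the 38 in the fit over both days. On single days it was exceeded by Acot1, Ehhadh, Phyh and, with the opposite sign, the dim Fabp1 (day 1) and by Acsm3 (day 3). Bdh1 read 4528, 4586 and 2649 on day 1, and 7721, 5316 and 2559 on day 3. The 60 min arrays of the 2 days were almost level and well below the other 4, while the 0 min array of day 3 was the highest of the 6. The difference of 60 min against 0 min was -1.18 ± 0.23 (limma adjusted p = 0.101), and a second Bdh1 probe set gave -1.07.

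Peroxisomal oxidation genes were lower at 60 min in 7 of 7 cases on day 1 (47.2% of genes) and 6 of 7 on day 3 (45.8% of genes). Ehhadh encodes the bifunctional enzyme that follows the oxidase step. It read 17729, 12853 and 10219 on day 1, and 13882, 13922 and 6789 on day 3. The 60 min arrays were below the other 4, and at 45 min only day 1 was lower than its 0 min array (60 min against 0 min, -0.91 ± 0.21, limma adjusted p = 0.126). Phyh, which encodes the enzyme that starts alpha-oxidation of phytanic acid, a branched fatty acid, read 17693, 11978 and 10254 on day 1, and 15436, 15789 and 8783 on day 3. The order of its arrays was that of Ehhadh, with a difference of -0.80 ± 0.21 (limma adjusted p = 0.145). Acox3, a gene of the oxidases for branched chains, differed by -0.47 on day 1 and -0.79 on day 3.

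Acaa1b, a peroxisomal thiolase gene, did not keep this pattern on day 3. It read 18293, 14310 and 10891 on day 1, and 6942, 5609 and 6954 on day 3. On day 1 intensities were in the order 0, 45 and 60 min, and on day 3 the 0 and 60 min arrays were level, all 3 below those of day 1 (60 min against 0 min, -0.37 ± 0.23, limma adjusted p = 0.412). Scp2, whose locus encodes a sterol carrier protein with a thiolase form, differed by -0.45 and -0.48. Hao2, a gene of a peroxisomal 2-hydroxy acid oxidase, differed by -0.41 on day 1 and -0.06 on day 3.

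Cat encodes catalase. It read 22053, 19287 and 15734 on day 1, and 20896, 20349 and 15006 on day 3. Both 60 min arrays were below the other 4 and close to each other (-0.48 ± 0.15, limma adjusted p = 0.171). Of the 2 membrane protein genes, Abcd3, which encodes an importer of fatty acids, differed by -0.24 on day 1 and -0.61 on day 3. Pex11a, whose product takes part in peroxisome division, read 1892, 1697 and 1850 on day 1, and 1690, 1764 and 1356 on day 3. Only the 60 min array of day 3 stood apart from the others (-0.17 ± 0.18, limma adjusted p = 0.618), and without that array the difference was 0.02.

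**Figure D2:**
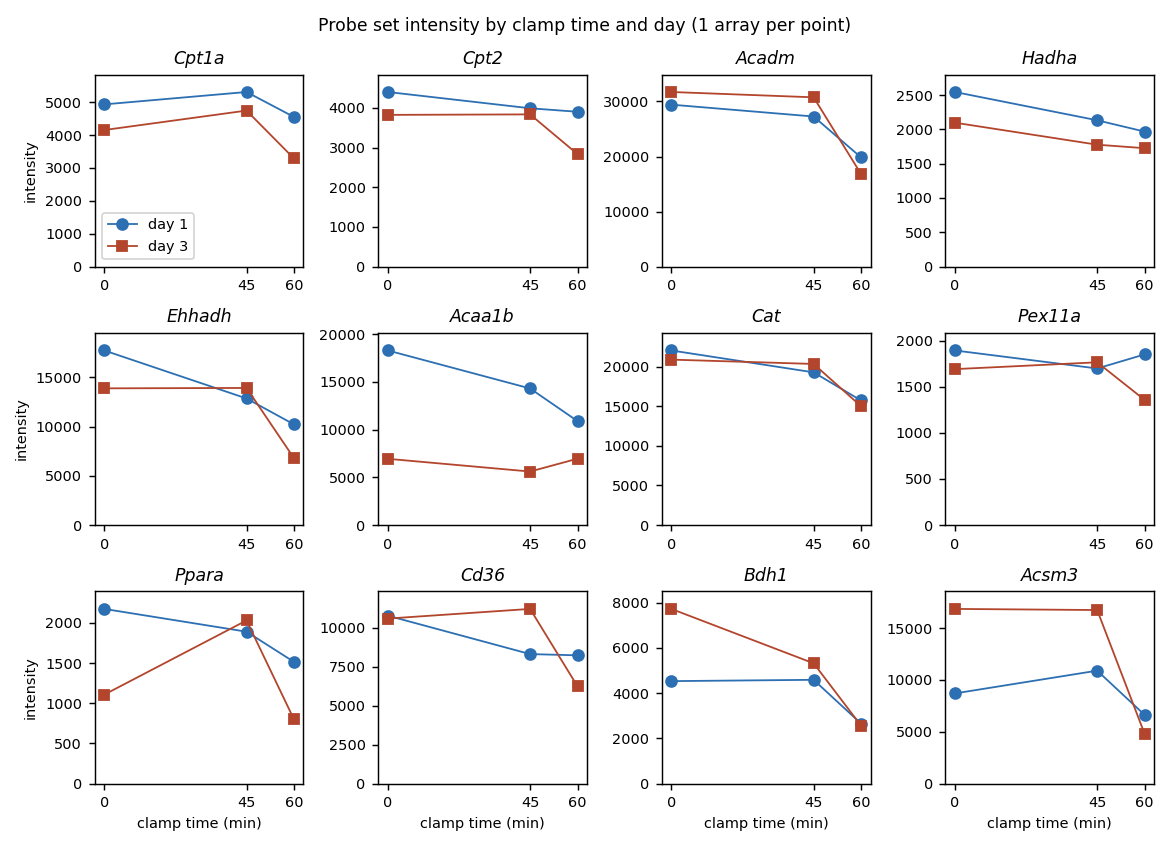
Probe set intensity (linear scale from 0) against clamp time in min for 12 genes, with day 1 as circles and day 3 as squares, 1 array per point. Acadm, Cat, Bdh1 and Ehhadh reach similar or lower values at 60 min on day 3 than on day 1. At 0 min Acaa1b and Ppara are already lower on day 3, and Bdh1 and Acsm3 are higher.

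Ppara encodes PPAR-alpha. It read 2174, 1890 and 1514 on day 1, and 1107, 2031 and 798 on day 3. On day 1 the values stood in the order 0, 45 and 60 min, and on day 3 the 45 min array was well above the other 2. At 45 min on day 3 the log2 difference from 0 min was 0.87, and at 60 min it was -0.52 on day 1 and -0.46 on day 3 (both days, -0.49 ± 0.30, limma adjusted p = 0.403). The other probe sets of Ppara read 2164, 1941 and 1450 on day 1 with 819, 1509 and 691 on day 3, and 811, 656 and 581 with 517, 772 and 313. All 3 probe sets thus had a high 45 min array among those of day 3. At 60 min on day 3, Ppara, Acsm3, Bdh1 and Ehhadh were at least 2-fold lower than at 45 min on that day, 4 of the 38 (2.40% of genes).

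PPAR-alpha binds with its partner RXR to repeats of a short element, AGGNCA, set in the same orientation with 1 base between the copies. This arrangement was searched on both strands of RefSeq promoters of build GRCm38.p6, each 300 bases long with 250 before the start of the gene. Of 36 genes of the list with a promoter in that table, 1 held it (2.78%), against 122 of 27025 genes (0.451%). That gene was Fabp1, and its promoter is printed because it was the only match. It lies at chr6:71199629-71199928 on the plus strand, and capitals mark the repeat, which reads on the minus strand and starts 67 bases before the start of the gene.

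Fabp1 promoter: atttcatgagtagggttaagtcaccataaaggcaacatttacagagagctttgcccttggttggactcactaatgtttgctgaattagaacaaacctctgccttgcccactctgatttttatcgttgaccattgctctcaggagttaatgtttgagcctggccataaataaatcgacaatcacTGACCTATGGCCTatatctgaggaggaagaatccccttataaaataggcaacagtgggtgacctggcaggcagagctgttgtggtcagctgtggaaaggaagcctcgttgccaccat

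The match is a description of the letters in this window, and elements that lie farther from the start were not searched. The Fabp1 intensities lay near the added constant of 16 on day 3, and its direction at 60 min differed between the days.

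At 45 min the differences from 0 min were smaller. On day 1, 28 of the 38 genes were lower by any amount (47.7% of genes) with a median of -0.17, and on day 3, 25 of 38 (54.5% of genes) with a median of -0.04. Over both days the median was -0.11 for the 38, -0.10 for the mitochondrial and -0.16 for the peroxisomal genes, where that of the 12734 genes was -0.01. At an unadjusted p under 0.05 in limma 0 of the 38 were lower (1.97% of genes), and 0 passed an adjusted p under 0.05 (0% of genes). Under quantile normalization the median at 45 min was -0.06 on day 1 (25 of 37 genes lower, 51.4% of genes) and -0.07 on day 3 (29 of 37, 55.8% of genes), and with each array centred on its median it was -0.14 on day 3, where that of all genes was -0.12. The peroxisomal genes were lower in 10 of 10 cases on day 1 and in 5 of 10 on day 3, and the mitochondrial genes in 13 of 19 on each day.

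Between the clamp times, 60 min was the lower. On both days 32 of the 38 genes were lower at 60 min than at 45 min (27.0% of genes), and 31 were lower at 60 min than at both shorter times (19.1% of genes). For 21 of the 38 both 60 min arrays were below all of the other 4 (13.2% of genes), 11 of them mitochondrial, 6 peroxisomal, 3 of both organelles and Cd36. In limma 9 of the 38 were lower at 60 min than at 45 min at an unadjusted p under 0.05 (5.29% of genes), and 0 at an adjusted p under 0.05 (0% of genes). The lowest of the 6 arrays was 60 min on day 3 for 29 of the 38 (21.3% of genes). The median difference of 60 min from 45 min was -0.26 for the mitochondrial genes and -0.30 for the peroxisomal genes, where that of the 12734 genes was 0.05.

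**Figure D3:**
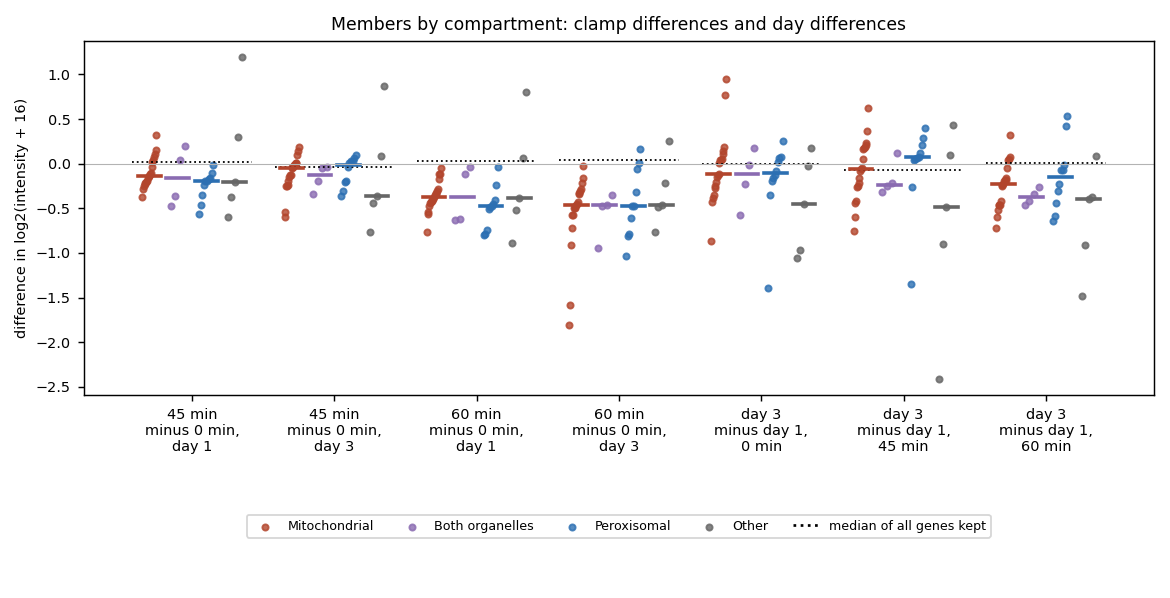
Log2(intensity + 16) differences between pairs of arrays for the 38 genes by the location of their product, 1 gene per point, with short lines at the median of each location and dotted lines at the median of the 12734 genes. At 60 min the mitochondrial medians of -0.37 (day 1) and -0.46 (day 3) and the peroxisomal medians of -0.48 on each day lie below the dotted lines. Of the day differences on the right, the location medians lie below the dotted lines at 0 min (mitochondrial -0.12, peroxisomal -0.10) and at 60 min (-0.23 and -0.15). At 45 min they lie on both sides of the dotted line.

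The days were then compared at each clamp time. Both control ratios, of beta-actin and of Gapdh, were lower on every day 3 array than on any day 1 array. The part of this in the day differences was not tested. Of the 38 genes, 23 were lower by any amount on day 3 than on day 1 at 0 min (50.1% of genes), 19 at 45 min (58.7% of genes) and 31 at 60 min (49.6% of genes), with medians of -0.12, -0.00004 and -0.26. With each array centred on its median, 19 were lower at 0 min (34.1% of genes), with a median of -0.004, where that of all genes was 0.12. In the fit over the 3 clamp times 8 of the 38 were lower on day 3 at an unadjusted p under 0.05 (5.47% of genes), and 0 passed an adjusted p under 0.05 in limma (0% of genes). For 8 genes, Acaa1b, Acadl, Cpt2, Slc25a20, Eci1, Eci2, Decr1 and Fabp1, all 3 arrays of day 3 were below all 3 of day 1 (7.16% of genes). Hao2 alone had all 3 above (4.26% of genes). Fabp1 passed the filter only through its day 1 arrays, so its place in both counts of 8 genes is no support for a day difference.

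Acaa1b and Eci1, the latter chosen after its values were seen, differed most between the days apart from Fabp1. Acaa1b was lower on day 3 by a log2 difference of -1.40 at 0 min, -1.35 at 45 min and -0.65 at 60 min (fit over clamp times, -1.13 ± 0.19, limma adjusted p = 0.479). Eci1 read 8464, 6537 and 6085 on day 1, and 4629, 3882 and 3693 on day 3. The groups of the 2 days did not overlap, and the differences at 0, 45 and 60 min were alike at -0.87, -0.75 and -0.72 (-0.78 ± 0.12, limma adjusted p = 0.479). Decr1 differed by -0.47 ± 0.12, Slc25a20 by -0.43 ± 0.12, Ech1 by -0.41 ± 0.13, Acadvl by -0.37 ± 0.12 and Eci2 by -0.34 ± 0.12. The dim Fabp1, which passed the filter only through its day 1 arrays, differed by -1.45 ± 0.38.

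Other day differences were not the same at each clamp time. At 0 min Acaa1b and Acot1 were at least 2-fold lower on day 3, 2 of 38 (1.40% of genes). At 45 min these were Acaa1b and Fabp1, 2 of 38 (2.06% of genes), and at 60 min Fabp1 alone, 1 of 38 (1.09% of genes). Since Fabp1 passed the filter only through day 1, its 2-fold calls are no support for a day difference. Acot1 differed by -1.06, -0.90 and 0.09 at 0, 45 and 60 min, and Ppara by -0.96, 0.10 and -0.91. Bdh1 and Acsm3 went the other way at 0 min, where they were higher on day 3 by 0.77 and 0.95. At 60 min their day differences were -0.05 and -0.47. The larger clamp differences of these genes on day 3 thus stood on higher 0 min arrays, and for Acsm3 also on a lower 60 min array.

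**Figure D4:**
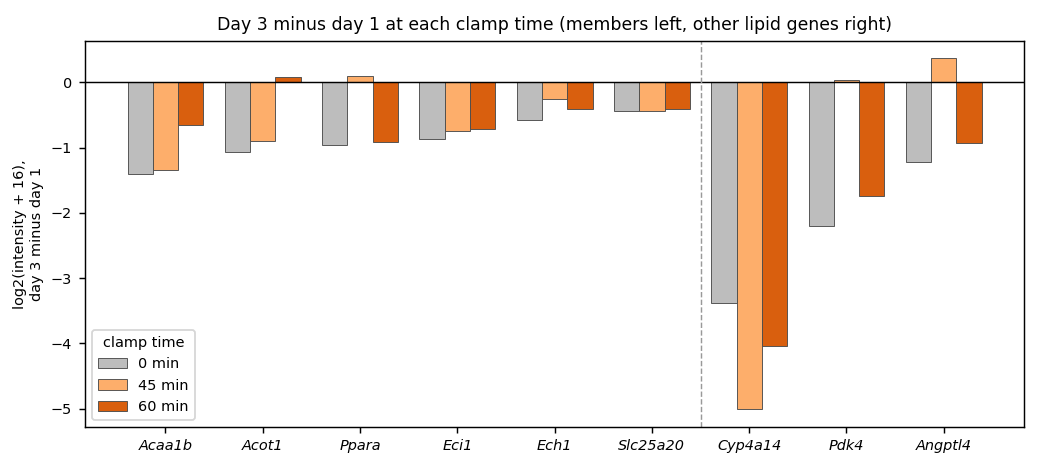
Day 3 minus day 1 in log2(intensity + 16) at 0, 45 and 60 min for 6 genes of the list (left) and 3 other lipid genes (right), 1 array per day behind each bar. Eci1 and Slc25a20 have bars of like size at the 3 clamp times, while the bars of Ppara, Pdk4 and Angptl4 are small or turned upward at 45 min.

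Whether the effect of clamping changed between the days was tested with the 45 and 60 min arrays of a day pooled in 1 cell of the fit. At an unadjusted p under 0.05 in limma 1 of the 38 had a lower clamp effect on day 3, Fabp1 (1.04% of genes), and 0 passed an adjusted p under 0.05 (0% of genes). Fabp1 passed the filter only through its day 1 arrays, so its call is no support for a change. The median change was -0.06 for the mitochondrial genes and 0.12 for the peroxisomal genes, where that of the 12734 genes was -0.03. In this test the difference between 45 and 60 min counts as spread.

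Further genes of mitochondria, peroxisomes and lipid handling were read from lists that did not overlap the 38. Not all of them act in fatty acid oxidation. Of other mitochondrial fatty acid and acyl-CoA genes, 25 passed the filter, and 22 were lower and 3 higher at 60 min than at 0 min, with a median of -0.46. In the same fit 5873 of the 12734 genes were lower and 6861 higher, with a median of 0.03. At an unadjusted p under 0.05 in limma 14 of the 25 were lower and 1 higher, and 0 passed an adjusted p under 0.05, where 8.22% of genes were lower and 1676 of 12734 higher. The largest differences were -0.82 ± 0.17 for Mmut, the methylmalonyl-CoA mutase gene, -0.79 ± 0.15 for Ivd, a dehydrogenase gene of leucine breakdown, -0.76 ± 0.16 for Acad10 and 0.76 ± 0.22 for Cpt1c, a dim member of the carnitine palmitoyltransferase family of neurons.

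Of other peroxisomal genes 43 passed the filter, and 40 were lower (5873 of the 12734 genes were) and 3 higher, with a median of -0.33. At an unadjusted p under 0.05 in limma 17 of the 43 were lower (8.22% of genes) and 1 higher (1676 of 12734 genes), and 0 passed an adjusted p under 0.05. Nudt19, a gene of a CoA-cleaving hydrolase, read 16600, 8977 and 6819 on day 1, and 14968, 20048 and 4128 on day 3, with a high 45 min array on day 3 (60 min against 0 min, -1.57 ± 0.45). Amacr, the racemase gene of branched-chain oxidation, differed by -1.14 ± 0.17, Ephx2, the soluble epoxide hydrolase gene, by -1.07 ± 0.31 and Crot, the carnitine octanoyltransferase gene, by -0.94 ± 0.23.

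Of genes of lipid handling and PPAR signalling 28 passed the filter, and 18 were lower (5873 of the 12734 genes were) and 10 higher, with a median of -0.12. At an unadjusted p under 0.05 in limma 6 of the 28 were lower (8.22% of genes) and 3 higher (1676 of 12734 genes, a larger share), and 0 passed an adjusted p under 0.05. Cyp4a14, a fatty acid omega-hydroxylase gene and a known target of PPAR-alpha, read 16833, 13595 and 8576 on day 1, and 1603, 407 and 506 on day 3. The days did not overlap, and the day differences were -3.38, -5.01 and -4.04 at 0, 45 and 60 min. Lpl, the lipoprotein lipase gene, differed by -1.19 ± 0.19 at 60 min, Angptl4, whose product inhibits that lipase, by 1.04 ± 0.40 and Fabp5 by 0.90 ± 0.34.

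Angptl4 and Pdk4, the latter chosen after its values were seen, are known targets of PPAR-alpha as well. Angptl4 read 1411, 1730 and 2640 on day 1, and 596, 2242 and 1380 on day 3. Pdk4, a kinase gene that restrains glucose oxidation, read 2631, 1632 and 2243 on day 1, and 560, 1683 and 662 on day 3. Both had their highest array of day 3 at 45 min, as Ppara did. For Acaa1b, Cyp4a14 and Acot1 the 45 min array was instead the lowest of day 3. The share of all genes with either order was not counted, and a link to PPAR-alpha was not tested.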

How the data were processed

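Per the labels' protocols, Trizol was used for RNA extraction and a 3' IVT kit for biotin labelling. The deposited values are linear intensities, 1 per probe set and array, and the submitters' processing notes name Affymetrix Expression Console, with no version. How probes were summarised is not given in the sources used here. The equal trimmed means (lowest and highest 2% removed) show a common scaling. Of 45101 probe sets, 64 were controls, 34945 had 1 symbol in the platform annotation, 932 several and 9160 none, and 34741 matched the RefSeq gene table. Values were used as log2(intensity + 16), and genes with a mean at or above the 40th percentile were kept. Contrasts were fitted with limma 3.58.1 in R 4.3.3 on clamp time plus day, and on 4 cells (0 min or clamped, by day) for the change between days, with Benjamini-Hochberg adjustment over 12734 genes at 0.05. Pairs of arrays were compared by size at 2-fold, with no p. The scripts were tested on simulated data. Promoters were read with Python 3.11.15.

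Intensities on the 6 arrays were printed for Cpt1a, Cpt2, Acadm, Hadha, Ehhadh, Acaa1b, Cat, Pex11a, Ppara and Cd36 and for any gene 2-fold lower or higher on both days, of which there was none. Of each further list the 4 genes with the largest difference at 60 min were named. The intensities of Acsm3, Acot1, Fabp1, Mlycd, Bdh1, Phyh, Eci1, Nudt19, Cyp4a14, Angptl4 and Pdk4 were chosen after their values were seen. The genes and lists were chosen with earlier results of these data known. Day is a block in the fit of clamp time plus day, and the labels give no replicate numbers that pair arrays in another way.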

Additional observations from a re-analysis of the deposited data

Results flagged for a closer look

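Fabp1, the liver fatty acid-binding protein gene, went opposite ways on the 2 days. It passed the filter only through its day 1 arrays. Its clamped arrays were above the 0 min array on day 1 (log2 differences of 1.20 at 45 min and 0.80 at 60 min) and below it on day 3 (-0.76 and -0.22). The change of the clamp effect from day 1 to day 3 was -1.49 ± 0.47 (limma adjusted p = 1), on intensities of 51.3 to 138 on day 1 and 13.0 to 33.1 on day 3, the latter near the added constant of 16.

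Fabp3, the heart and muscle binding protein gene, also had both clamped arrays above the 0 min array on day 1 (0.30 and 0.07) and below it on day 3 (-0.36 and -0.49). Its change was -0.61 ± 0.33 (limma adjusted p = 1), and neither gene passed the test of the difference. A second, dim Fabp3 probe set did not turn in this way at 60 min. It gave 0.06 and 0.10 at 45 and 60 min on day 1, and -0.04 and 0.07 on day 3.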

How the results depend on the processing

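Of 636 values of single genes recomputed under other settings, 9 changed sign, and the medians of the mitochondrial (-0.50 to -0.30) and peroxisomal genes (-0.54 to -0.29) at 60 min kept theirs, as did those at 45 min (-0.20 to -0.03 and -0.24 to -0.05). The count of genes past an adjusted p under 0.05 in limma for 60 min against 0 min, 0 as reported, was 135 with median centring, 277 with a pseudocount of 64, 202 with a filter at the 60th percentile, 20 with the mean of probe sets, 615 with a robust variance trend, and 0 to 450 without 1 array (450 without either 45 min array). Under the robust variance trend Acadm, Ehhadh, Phyh, Bdh1 and Mlycd were among them (limma adjusted p = 0.0278, 0.0356, 0.0478, 0.0262 and 0.0446). For 45 min the count was 0 to 3 without 1 array (3 without 45 min day 3), and between days 4 with the robust variance trend and 0 to 1 without 1 array (1 without either 45 min array). With median centring 5 genes were 2-fold lower at 60 min on day 3. That centring moved the median of all genes to -0.13 there, -0.12 at 45 min on day 3 and 0.12 between days at 0 min, where the 38 had -0.64, -0.14 and -0.004. The day median at 45 min was 0.10 with median centring and -0.14 with quantile normalization. Signs turned at 60 min for Acadl with quantile normalization (0.0012), Cpt2 with the mean of probe sets (0.21) and without 1 array for 6 genes. Without 0 min day 1 these were Acot1 (0.0099) and Fabp1 (-0.45), without 60 min day 1 Acot1 (0.22), Acaa2 (0.0026) and Decr2 (0.19), without 0 min day 3 Fabp3 (0.095) and without 60 min day 3 Pex11a (0.021). Their ranges without 1 array were -0.85 to 0.22, -0.45 to 1.03, -0.60 to 0.0026, -0.54 to 0.19, -0.52 to 0.095 and -0.37 to 0.021 (Acot1, Fabp1, Acaa2, Decr2, Fabp3 and Pex11a). The cause was not tested. The change of the clamp effect could not be fitted without a 0 min array. Signal near 16, as for Fabp1 on day 3, limits precision.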
